A study of Mus musculus with 8 samples.

Results

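Heat shock proteins of the cytosol keep other proteins folded, and a core group of their genes is driven by the heat shock factor HSF1. The group described here holds 10 such genes, chosen by name: Hspa1a, Hspa1b, Hspa8, Hspa4, Hsph1, Hsp90aa1, Hsp90ab1, Dnajb1, Bag3 and Hspb1. All 10 were found among the 37417 genes of the deposited table, each once, and all 10 passed the filter on low counts that left 14800 genes for testing. RNA came from epididymal adipose tissue, the fat pad beside the epididymis, of male C57Bl/6 mice on chow diet. The 4 knockout mice had the genotype Adiponectin-Cre ERT2-Atg3 flox/flox and the 4 control mice are labelled WT; all were treated with Tamoxifen, and neither age nor any floxed or Cre allele of the controls is given. Adiponectin-Cre ERT2 is a tamoxifen-activated recombinase made in adipocytes, so the blood vessel, immune and connective tissue cells of the pad should keep Atg3, a gene needed to build autophagosomes.

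HSP70 proteins bind unfolded stretches of other proteins and release them on ATP turnover; J-domain proteins deliver the clients and HSP110 proteins exchange the nucleotide. HSP90 finishes the folding of kinases and hormone receptors, small heat shock proteins hold unfolded proteins in solution, and BAG3 links HSP70 and small heat shock proteins to autophagy. HSF1 is held inactive by chaperones in unstressed cells and, when they are occupied by damaged protein, binds DNA repeats called heat shock elements. The comparison asked whether transcripts of this system differed between knockout and wild-type fat.

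Heat shock elements are read as alternating GAA and TTC units separated by any 2 bases. The RefSeq promoter table (build GRCm38.p6) held 9 promoters of 7 of the genes; Hspa8, Hsp90aa1 and Hsp90ab1 were not matched. In the 250 bases before the start site, pairs of units (GAANNTTC or TTCNNGAA, each its own reverse complement) were found in 5 of these 9 promoters, which belong to 4 of the 7 genes, against 12.8% of 32851 promoters in the table. Hspa1a and Hspa1b, which are nearly identical there, and the overlapping promoters of Hsph1 are not separate cases. Rows of 3 units (GAANNTTCNNGAA or TTCNNGAANNTTC, which are each other's reverse complement and contain the shorter pairs) were found for 0 of the 7 genes and in 0.466% of all promoters. The 150 bases before the start site are shown for these 4 genes, 5′ to 3′ on the strand of the gene, with the paired units in capitals, because they carry the letters that HSF1 is known to recognise. They lie at chr17:34972157-34972306 (minus strand) for Hspa1a, chr17:34959239-34959388 (minus) for Hspa1b, chr5:135887769-135887918 (plus) for Hspb1 and chr5:149636337-149636486 (minus) for Hsph1, the first of its 2 listed starts.
Hspa1a: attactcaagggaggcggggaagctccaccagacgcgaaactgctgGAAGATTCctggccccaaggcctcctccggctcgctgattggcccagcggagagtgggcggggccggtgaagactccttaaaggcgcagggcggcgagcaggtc
Hspa1b: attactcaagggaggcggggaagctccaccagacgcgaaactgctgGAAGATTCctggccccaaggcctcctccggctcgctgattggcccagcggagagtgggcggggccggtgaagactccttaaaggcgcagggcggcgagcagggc
Hspb1: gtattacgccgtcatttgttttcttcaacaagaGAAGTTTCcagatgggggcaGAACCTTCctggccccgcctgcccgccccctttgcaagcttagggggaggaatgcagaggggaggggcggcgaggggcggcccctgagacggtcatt
Hsph1: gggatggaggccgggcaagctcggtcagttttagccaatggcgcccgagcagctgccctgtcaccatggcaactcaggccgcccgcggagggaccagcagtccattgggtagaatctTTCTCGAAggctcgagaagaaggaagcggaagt
The Hspa1a and Hspa1b stretches are identical at 149 of 150 bases, with the paired units 104 bases before the start in each. Hspb1 has a pair 117 and another 97 bases before its start, and Hsph1 has a pair 33 bases before its first listed start. A match of letters is a description and does not show that HSF1 binds there. Only exact units in the 250 bases were searched, so the lack of a match does not show that a gene has no element.

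Library totals ran from 10986375 to 21688464 counted reads. Levels are given as CPM, read counts scaled to a common library size with TMM factors, and fold changes compare knockout with wild-type libraries; the labels name 4 mice per genotype, so the spread is that between mice. Atg3 had 44.5 to 53.6 CPM in the 4 wild-type and 27.8 to 32.2 CPM in the 4 knockout libraries, each on the side its label gives (log2 fold change -0.73, edgeR's quasi-likelihood test, adjusted p = 0.0168). Knockout fat thus kept a mean of 30.3 CPM of Atg3, against 50.2 CPM in wild-type fat. The 8 adipocyte markers checked, such as Adipoq and Plin1, summed to 24490 to 34610 CPM in wild-type and 22160 to 28840 CPM in knockout libraries, and none was at 0. Knockout libraries 2 and 3 stood apart: the 10 duct epithelium markers checked, among them Foxj1 and Epcam, summed to 461 and 467 CPM there, to 30.2 and 40.7 CPM in knockout libraries 1 and 4, and to 8.37 to 19.0 CPM in wild-type libraries. Germ cell markers of the testis summed to 0.231 to 12.2 CPM in knockout and 0.196 to 6.45 CPM in wild-type libraries. Endothelial markers summed to 1205 to 1373 CPM in knockout and 1423 to 1680 CPM in wild-type libraries. In bulk fat, fewer cells of a type and less RNA per cell cannot be told apart.

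None of the chaperone transcripts rose or fell past the test, and none separated the genotypes. With edgeR's quasi-likelihood test 0 of 10 passed an adjusted p of 0.05, against a background of 0.405% of all tested genes. With DESeq2 0 of 10 passed, where 810 of 14785 genes did, and with limma-voom 0 of 10, where 45 of 14800 did. At an unadjusted p under 0.05 in edgeR stood 1 of 10, Hsph1, on the higher side. The background there was 16.2% in either direction and 8.52% on the higher side. The groups did not overlap for 0 of 10, against 8.86% of tested genes in either direction and 4.32% with the knockout higher. All 10 estimates lay above 0, from 0.0072 for Bag3 to 0.72 for Hsph1, where 47.6% of all tested genes had positive values; the median log2 fold change was 0.15 over the 10 and -0.013 over all tested genes. Hspa1a and Hspa1b share reads, and several of the genes were correlated across libraries, so the 10 signs are not separate pieces of evidence. The upper 95% limit was below 1.5-fold for 5 genes and above 2-fold for 2, Hspa8 and Hsph1. Without knockout libraries 2 and 3, an alternative chosen with their marker levels known, 0 of 10 passed (edgeR, with 1294 of all genes and 0 of the 10 at an unadjusted p under 0.05), 7 of 10 estimates were positive and the median was 0.090.

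**Figure D1:**
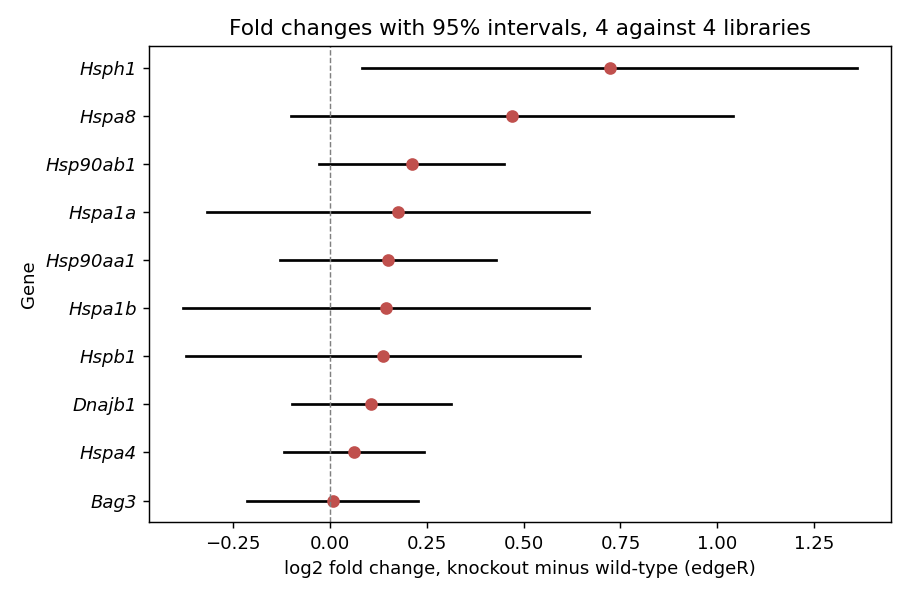
Log2 fold change of each chaperone gene, knockout minus wild-type, as points with 95% intervals as bars (edgeR's quasi-likelihood fit, 4 libraries per genotype). Hsph1 is the single gene whose interval stays above 0, from 0.083 to 1.36, and its adjusted p was 0.256.

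Levels between genes were compared per length, with the FPKM values of the deposited table. Hsp90ab1, the constitutive HSP90, held 241 ± 10.2 FPKM in wild-type and 282 ± 33.4 FPKM in knockout fat (SD, n = 4), more than the other 9 genes together: its share of their summed FPKM was 61.9 to 64.2% in wild-type and 61.0 to 66.3% in knockout libraries. In wild-type fat Bag3 (35.7 FPKM), Hspa4 (26.9), Hspb1 (23.1), Hspa8 (22.4) and Dnajb1 (17.4) followed, then Hsp90aa1 (8.35), Hsph1 (3.94), Hspa1b (1.97) and Hspa1a (0.934). Neighbours in this order overlapped between wild-type libraries for Hspa4 and Hspb1, for Hspb1 and Hspa8, and for Hspa8 and Dnajb1; the other neighbours did not. Genes that are not neighbours could overlap too. Hspa8 ran from 16.1 to 34.7 FPKM in wild-type libraries, which reaches Bag3 (31.65 to 39.1) and covers Hspa4 (24.9 to 28.1). In the knockout the ranges of the neighbours Hsp90aa1 and Hsph1 overlapped as well, and those of Hspa8 and Dnajb1 did not. By mean knockout FPKM Hspa8 (31.1) stood above Hspa4 (28.4) and Hspb1 (25.6). The strongly stress-inducible pair, Hspa1b and Hspa1a, stood lowest in this table, with 22.9% and 13.6% as their percentile ranks of wild-type FPKM among tested genes, where Hsp90ab1 had 99.1%. This order rests on reads as counted: 66.3% of the 50-base stretches of Hspa1a and 62.3% of those of Hspa1b occur in other genes too, against 0% for Hsph1, the next gene above them. If reads that fit several genes were left out, the levels of the pair would be understated, so its place in the order is uncertain. The same holds for Hspb1, Hspa8 and Hsp90aa1, with 50.1%, 39.4% and 47.5% of their stretches shared, against 0% for Bag3 and Hspa4. The order also depends on the gene length used for FPKM: by mean wild-type CPM Hspa8 had 93.5, Bag3 93.4 and Hspa4 150.

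**Figure D2:**
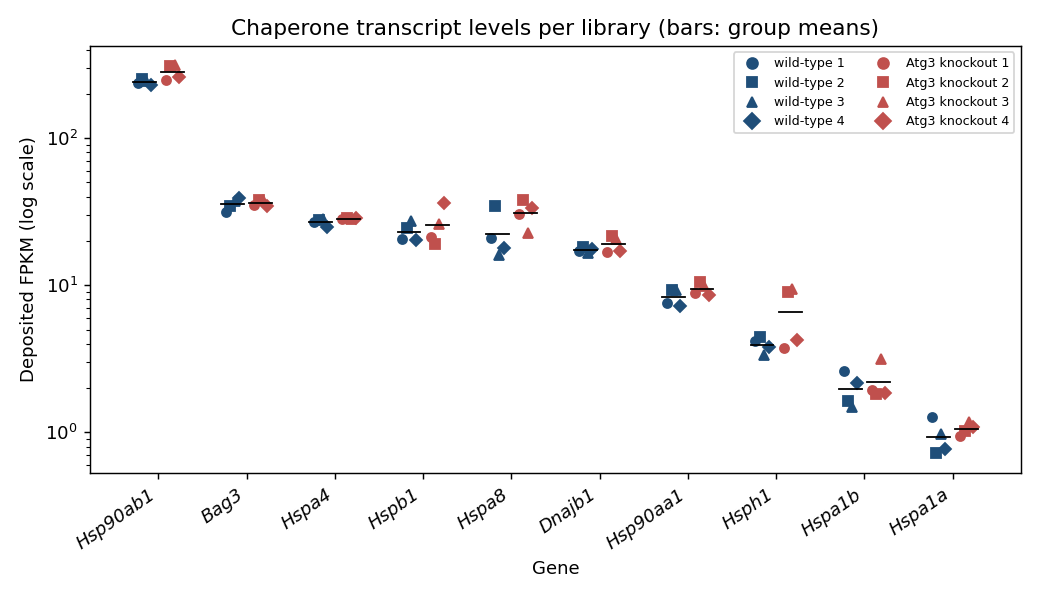
Deposited FPKM of each chaperone gene on a log scale, 1 point per library (blue wild-type, red knockout, marker shape for the replicate number) with group means as bars. The genes span from about 0.934 FPKM for Hspa1a to 241 FPKM for Hsp90ab1 in wild-type fat, and the genotypes overlap for each gene.

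Hspa1a and Hspa1b encode the inducible HSP70, the classical marker of a heat shock response, and were present at a few CPM in each library. Hspa1a (chr17:34969199-34972124, mm10, minus strand) had 3.53, 2.12, 3.04 and 2.29 CPM in wild-type libraries 1 to 4 and 2.77, 2.96, 3.27 and 3.32 CPM in knockout libraries 1 to 4. All 4 knockout values lie inside the wild-type range. These rest on 35 to 69 reads a library, where counting error alone gives a coefficient of variation of 16.4% in wild-type and 14.4% in knockout libraries, against an observed 24.0% and 8.40%. Hspa1b (chr17:34956436-34959238, minus strand) had 6.88, 4.58, 4.43 and 6.15 CPM in wild-type libraries 1 to 4 and 5.39, 5.11, 8.44 and 5.43 CPM in knockout libraries 1 to 4. Knockout library 3 alone lay above the wild-type range, and without it the log2 fold change of Hspa1b went from 0.15 to -0.045.

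The coding sequences of Hspa1a and Hspa1b are 99.4% identical, and 62.3% of all 50-base stretches of Hspa1b, the length of the reads, also occur in Hspa1a. Their counts therefore cannot be assigned with certainty, and the pair was also tested as a sum. Summed, the pair had 10.4, 6.70, 7.46 and 8.45 CPM in wild-type libraries 1 to 4 and 8.16, 8.08, 11.7 and 8.75 CPM in knockout libraries 1 to 4. The log2 fold change of the sum was 0.15 (SE 0.19, 95% interval -0.28 to 0.58, edgeR adjusted p = 0.737). A doubling of the pair lies above the upper limit of this interval. Hspa1a held 27.1 to 40.7% of the pair's reads in wild-type and 27.9 to 37.9% in knockout libraries.

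Hspa8, the constitutive HSP70 that also carries proteins to the lysosome in chaperone-mediated autophagy, had the highest coefficient of variation of the 10 among wild-type libraries as counted, 37.1%, and 21.7% when summed with the pseudogene copy described next, where Hspa1a had 24.0% and Hspa1b 21.8%. Hspa8 (chr9:40800984-40805200, plus strand) had 81.6, 145.1, 71.6 and 75.5 CPM in wild-type libraries 1 to 4 and 126.5, 157, 89.8 and 144.5 CPM in knockout libraries 1 to 4. The values fall into a high set, wild-type library 2 and knockout libraries 1, 2 and 4, and a low set, wild-type libraries 1, 3 and 4 and knockout library 3. The log2 fold change was 0.47 (SE 0.25, 95% interval -0.10 to 1.04, edgeR adjusted p = 0.400), and 0.76 without wild-type library 2 (adjusted p = 0.236).

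Reads of the pseudogene Gm15459 followed the same sets in reverse. Gm15459 (chr5:5781530-5783607, minus strand) is a pseudogene copy of Hspa8 whose annotated transcript differs from the Hspa8 coding sequence at 5 of 1941 bases: G114A, C414T, C549T, G1222A and C1440T, counted from the first base of the start codon, Hspa8 first. The transcript is that of GENCODE M21 and was joined to the counted gene by name, since their identifiers differ. Whether both are the same gene model was not tested. Of the 1892 stretches of 50 bases in the coding sequence, 1642 (86.8%) are identical in both. Bases 89 to 138 around the first difference, shown in capitals, illustrate how little separates a read of either.
Hspa8: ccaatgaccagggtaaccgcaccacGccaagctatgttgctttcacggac
Gm15459: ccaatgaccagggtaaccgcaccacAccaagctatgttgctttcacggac
Gm15459 had 239, 18, 259 and 395 reads in wild-type libraries 1 to 4 and 9, 13, 444 and 26 reads in knockout libraries 1 to 4. Wild-type libraries 1, 3 and 4 thus held 25.2 to 34.3 copy reads per 100 Hspa8 reads and knockout library 3 held 33.7, where the other 4 libraries held 0.547 to 0.865. Over the 8 libraries log2 CPM of the gene and the copy had a Pearson r of -0.94 and a Spearman rho of -0.69, given as a description since both share library and sequence.

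The sum of Hspa8 and Gm15459 was 102, 146, 92.9 and 101 CPM in wild-type libraries 1 to 4 and 127, 158, 120 and 146 CPM in knockout libraries 1 to 4. With pseudogene copies added to their genes, a setting added with these counts in view, the log2 fold change of Hspa8 was 0.32 (SE 0.15, 95% interval -0.029 to 0.66, edgeR adjusted p = 0.352), against 0.47 for Hspa8 alone. The sum of Hspa8 and Gm15459 leaves out other genes with 50-base stretches of Hspa8. Gm26825 holds 34.0% and Gm8355 22.7% of these stretches, where Gm15459 holds 34.6%. The low set contained 3 wild-type and 1 knockout library, so the split between gene and copy moves with the genotype comparison. The sources used here do not say how reads that fit both places were assigned, and the part of the copy in the Hspa8 difference was not tested beyond this sum.

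**Figure D3:**
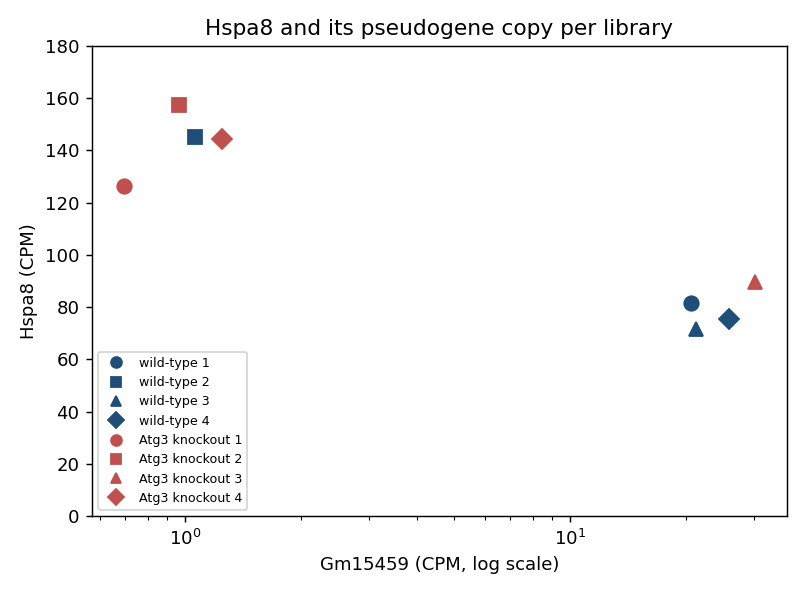
Hspa8 CPM against Gm15459 CPM (log scale), 1 point per library, blue wild-type and red knockout. The 4 libraries with 20.6 to 30.2 CPM of Gm15459 have 71.6 to 89.8 CPM of Hspa8, and the 4 with 0.693 to 1.25 CPM of Gm15459 have 126.5 to 157 CPM of Hspa8.

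Hsph1 and Hspa4 encode HSP110 proteins, the nucleotide exchange factors of HSP70. Hsph1 (chr5:149614287-149636376, minus strand) had 27.7, 31.4, 25.2 and 27.1 CPM in wild-type libraries 1 to 4 and 26.1, 63.1, 63.7 and 31.3 CPM in knockout libraries 1 to 4. Knockout libraries 2 and 3 stood above all wild-type libraries, while libraries 1 and 4 lay within the wild-type range. The log2 fold change was 0.72 (SE 0.28, 95% interval 0.083 to 1.36, edgeR unadjusted p = 0.031, adjusted p = 0.256). The log2 fold change of Hsph1 was 0.056 (adjusted p = 0.934) without knockout libraries 2 and 3, where the duct epithelium markers summed to 461 and 467 CPM. None of the 10 duct markers was at 0 over all libraries, and 7 of them passed the filter on low counts. The part of duct tissue in the Hsph1 value was not tested beyond leaving out these libraries.

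Hspa4 (chr11:53259814-53300457, minus strand) had 140, 155, 166 and 139 CPM in wild-type libraries 1 to 4 and 156, 158, 148 and 164 CPM in knockout libraries 1 to 4. On this TMM-scaled measure the knockout values all lie inside the wild-type range, with a coefficient of variation of 4.22%, against 8.49% among wild-type libraries. In the deposited FPKM, which are scaled by library total, Hspa4 had 28.31, 28.63, 28.08 and 28.49 in knockout libraries 1 to 4 against 24.87 to 28.09 in wild-type libraries, so 3 of 4 knockout values lay above all wild-type ones. Its log2 fold change of 0.062 had the smallest SE of the 10, 0.080, with a 95% interval of -0.12 to 0.24 (edgeR adjusted p = 0.750), and no 50-base stretch of it or of Hsph1 occurs in another gene (0%).

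HSP90 is encoded by a constitutive and an inducible gene. Hsp90ab1 (chr17:45567775-45573271, minus strand) had 672, 764, 782 and 696 CPM in wild-type libraries 1 to 4 and 744, 927, 894 and 808 CPM in knockout libraries 1 to 4. Of the knockout libraries 3 lay above the wild-type range, highest in libraries 2 and 3, and library 1 lay inside it. The log2 fold change was 0.21 (SE 0.11, 95% interval -0.028 to 0.45, edgeR adjusted p = 0.368), and 0.10 (adjusted p = 0.860) without knockout libraries 2 and 3. Hsp90aa1, the stress-inducible HSP90 (chr12:110690605-110702728, minus strand), had 28.0, 36.9, 38.9 and 29.0 CPM in wild-type and 34.5, 41.2, 36.8 and 34.9 CPM in knockout libraries 1 to 4, with library 2 alone above the wild-type range. Its log2 fold change was 0.15 (95% interval -0.13 to 0.43, edgeR adjusted p = 0.596), and 0.077 without knockout libraries 2 and 3. With single libraries left out, it ran from 0.078, without wild-type library 1, to 0.235, without wild-type library 3. The FPKM of Hsp90ab1 was 29.1 ± 2.73 times that of Hsp90aa1 in wild-type and 30.0 ± 1.55 times in knockout fat (SD, n = 4). Of the 50-base stretches of Hsp90aa1, 47.5% also occur in other genes, mainly the pseudogene Gm12346, which had 3 to 8 reads a library. Only 3.44% of those of Hsp90ab1 are shared, so the ratio between the HSP90 genes would be overstated if reads that fit several genes were left out.

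Dnajb1, the J-domain partner of inducible HSP70 and a standard HSF1 target, had 40.1, 45.4, 43.7 and 44.5 CPM in wild-type libraries 1 to 4 and 41.5, 53.0, 48.9 and 43.8 CPM in knockout libraries 1 to 4. Libraries 2 and 3 of the knockout were again the high ones, and the log2 fold change of 0.11 (95% interval -0.098 to 0.31, edgeR adjusted p = 0.608) was -0.014 without them. The gene lies at chr8:83608175-83611902 on the plus strand. Bag3 (chr7:128523583-128546977, plus strand), the co-chaperone that hands clients of HSP70 to autophagy, had 77.5, 89.7, 104 and 103 CPM in wild-type and 90.9, 97.4, 93.6 and 93.8 CPM in knockout libraries 1 to 4. All knockout values lie inside the wild-type range, and the log2 fold change was 0.0072 (SE 0.098, 95% interval -0.21 to 0.23, edgeR adjusted p = 0.981). An increase of Bag3 above 1.17-fold or a decrease below 0.862 of the wild-type level lies outside this interval.

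Hspb1, the small heat shock protein HSP25, had 19.9, 25.3, 30.3 and 21.1 CPM in wild-type libraries 1 to 4 and 21.8, 19.6, 25.5 and 39.0 CPM in knockout libraries 1 to 4. Knockout library 4 stood above the wild-type range and library 2 below it. The log2 fold change was 0.14 (SE 0.23, 95% interval -0.37 to 0.65, edgeR adjusted p = 0.809), and -0.12 without knockout library 4. Hspb1 (chr5:135887919-135889563, plus strand) shares 50.1% of its 50-base stretches with other genes, mainly its pseudogene Hsp25-ps1, which had 8 to 65 reads a library and 65 in knockout library 4; with the copies added the log2 fold change was 0.16.

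Correlations among the 10 genes were mixed. Of their 45 pairs 33 had a positive Pearson r of log2 CPM, 5 were above 0.7, and the median was 0.23; these are descriptions over libraries that include both genotypes. The high pairs were Dnajb1 with Hsph1 (0.88), Dnajb1 with Hsp90ab1 (0.87), Hsp90ab1 with Hsph1 (0.86), Hsp90aa1 with Hsp90ab1 (0.84) and Hspa4 with Hsp90aa1 (0.79), with Spearman rho of 0.762, 0.738, 0.595, 0.81 and 0.667 in the same order. Dnajb1, Hsph1 and Hsp90ab1 were each highest in knockout libraries 2 and 3, the libraries with the high duct markers. Over the other 6 libraries, a setting added with these levels in view, Pearson r was 0.403 for Dnajb1 with Hsph1, 0.534 for Dnajb1 with Hsp90ab1 and 0.317 for Hsp90ab1 with Hsph1. It was 0.887 for Hsp90aa1 with Hsp90ab1 and 0.921 for Hspa4 with Hsp90aa1. Inducible Hspa1b had its lowest value with Hspa4 (-0.67), and Hspa1a and Hspa1b had 0.43 with each other. By Pearson r over the 8 libraries, the gene most like Hsph1 was Dmkn (dermokine, an epithelial secreted protein; 0.997), with 16.6 and 16.2 CPM in knockout libraries 2 and 3 and 1.31 to 2.59 CPM in the other 6. The nearest gene was S100a6 for Hspb1 (0.992), Txnrd2 for Bag3 (0.985), B930095G15Rik for Dnajb1 (0.981), Fuca2 for Hsp90ab1 (0.979), Lyrm2 for Hspa4 (0.964), Zfp184 for Hspa1b (0.964), Pa2g4 for Hsp90aa1 (0.959), Chn2 for Hspa1a (0.956) and Clca5 for Hspa8 (0.952). The mean standardised level of the 10 was followed most closely by Abi2 (0.977), Fuca2 (0.966), Arl3 and Med19 (both 0.962) and Tmem218 (0.961). The search ran over those of the 14800 tested genes, other than the 10 themselves, with a mean of at least 1 CPM. With so many genes and 8 libraries such values are the upper end of many.

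No gene of the wider chaperone lists passed the test either. Over 10 lists of related genes 0 members passed over all genes (edgeR, where 60 of 14800 genes passed and 2394 had an unadjusted p under 0.05). Among HSF factors and regulators 4 of 6 were tested and 0 of the 4 reached an unadjusted p under 0.05; Hsbp1, which binds HSF1, had a log2 fold change of 0.13 (adjusted p = 0.545), Hsf4 0.16 (adjusted p = 0.592) and Hsf2 0.094 (adjusted p = 0.694), with a list median of 0.11. J-domain and HSP70 co-chaperones had 3 of 16 at an unadjusted p under 0.05 on the higher side and 1 on the lower side, with a median of 0.077. Of all tested genes 8.52% had such a p on the higher side (edgeR). Dnaja4, a J-domain co-chaperone, had 18.2 to 31.2 CPM in wild-type and 23.5, 197, 205 and 33.3 CPM in knockout libraries 1 to 4 (log2 fold change 2.13, edgeR adjusted p = 0.178). Bag2, an inhibitor of the ubiquitin ligase CHIP, had 3.40 to 5.91 CPM in wild-type and 4.77, 11.9, 11.0 and 5.91 CPM in knockout libraries 1 to 4 (log2 fold change 1.01, adjusted p = 0.189). Both were high in the libraries in which Hsph1 and the duct markers were high, and the part of duct tissue in these values was not tested. Dnaja1, the main type A J-domain protein of the cytosol, had 47.6 to 57.1 CPM in wild-type and 40.7 to 47.2 CPM in knockout libraries. Its log2 fold change was -0.26 (edgeR adjusted p = 0.180). Of the 16 the groups did not overlap for 1 on the lower side, Dnaja1, and 1 on the higher side. Of all tested genes 8.86% did not overlap.

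**Figure D4:**
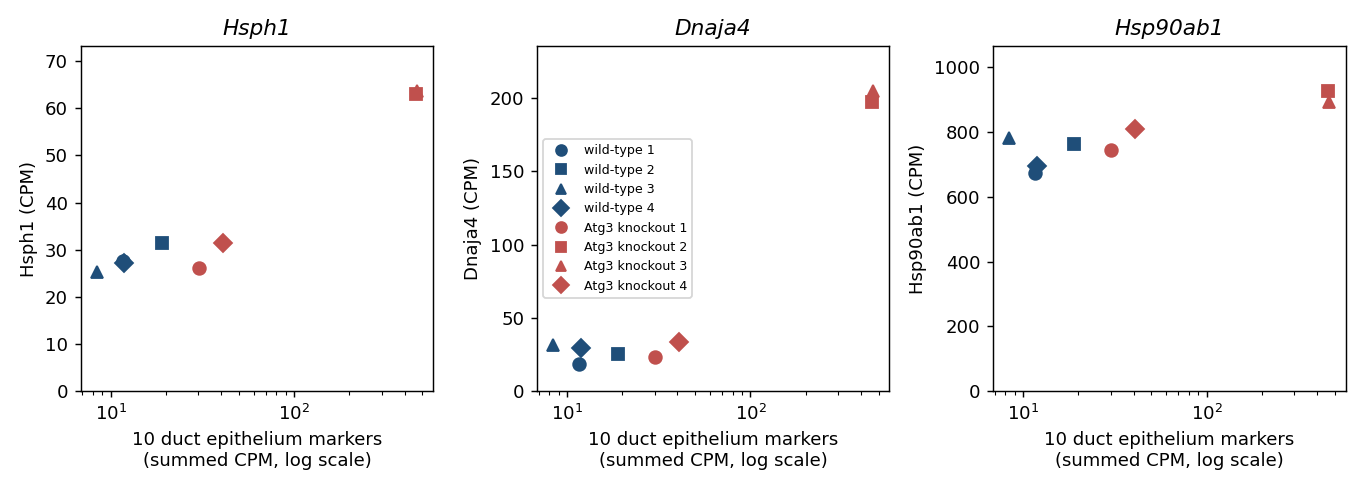
CPM of Hsph1, Dnaja4 and Hsp90ab1 against the summed CPM of 10 duct epithelium markers (log scale), 1 point per library. Knockout libraries 2 and 3, at 461 and 467 CPM of markers, hold 63.1 and 63.7 CPM of Hsph1 and 197 and 205 CPM of Dnaja4.

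HSP90 co-chaperones were evenly split, 8 of 16 above 0 and 8 below, with a median of 0.0049, where 47.6% of all tested genes were above 0. Unc45a, a chaperone of myosin, had 44.3 to 50.1 CPM in wild-type and 38.1 to 43.0 CPM in knockout libraries (log2 fold change -0.24, edgeR adjusted p = 0.159). The groups did not overlap for Unc45a, 1 of the 16, where 8.86% of all tested genes did not overlap. Cdc37l1 had a log2 fold change of -0.19 (edgeR adjusted p = 0.272), and Cdc37, which brings kinases to HSP90, 0.17 (adjusted p = 0.329). Of the other HSP70 family 3 of 7 tested gene models were above 0, with a median of -0.19. Hspa12a, an atypical HSP70, had 95.5, 135, 184 and 168.5 CPM in wild-type and 93.3, 72.1, 57.2 and 116 CPM in knockout libraries 1 to 4 (log2 fold change -0.78, adjusted p = 0.184), lowest in the libraries where the duct markers were highest, whose part in this value was not tested. Hspa14 had a log2 fold change of -0.19 (adjusted p = 0.356) and Hspa2 0.38 (adjusted p = 0.399).

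Other small heat shock proteins had 4 of 5 tested members above 0, against 47.6% of all tested genes, and a median of 0.57. The values varied widely: Cryab, alpha B-crystallin, had 44.7, 109, 15.3 and 15.8 CPM in wild-type and 64.2, 73.1, 61.0 and 135 CPM in knockout libraries 1 to 4 (log2 fold change 0.84, 95% interval -0.51 to 2.20, edgeR adjusted p = 0.533). Hspb2, its divergently transcribed neighbour, had a log2 fold change of 0.68 (adjusted p = 0.321) and Hspb6 0.23 (adjusted p = 0.679). The subunits of TRiC, the ring-shaped folding chamber for actin and tubulin, and of prefoldin had a median of 0.062 over 13 tested members; Pfdn2 had 0.17 (adjusted p = 0.444), Cct3 0.11 (adjusted p = 0.459) and Pfdn1 0.21 (adjusted p = 0.474). Other HSF1 targets had a median of 0.11 over 8 members, with the collagen chaperone Serpinh1 at -0.23 (adjusted p = 0.562) and Zfand2a at -0.16 (adjusted p = 0.569).

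Chaperones of other compartments likewise had 0 calls, where 0.405% of all tested genes were called. Among 14 of the endoplasmic reticulum the median was -0.032, with Sdf2l1 at 9.10 to 11.6 CPM in wild-type and 12.5 to 14.5 CPM in knockout libraries (log2 fold change 0.35, edgeR adjusted p = 0.211). Calr, calreticulin, had 457 to 524 CPM in wild-type and 411 to 449 CPM in knockout libraries (log2 fold change -0.19, adjusted p = 0.301), and Hspa5, the HSP70 of that compartment, -0.17 (adjusted p = 0.433). The groups did not overlap for Sdf2l1 and Calr, 1 of the 14 on each side, where 8.86% of all tested genes did not overlap. None of these 3 named genes passed. Among 10 mitochondrial chaperones 8 were above 0, with a median of 0.087, where 47.6% of all tested genes were above 0. Grpel1, the exchange factor of mitochondrial HSP70, had a log2 fold change of 0.27 (edgeR adjusted p = 0.289), Clpp 0.17 (adjusted p = 0.400) and Grpel2 -0.17 (adjusted p = 0.550). Immediate early genes, transcripts that respond within minutes to handling and other stimuli, had a median of -0.19. Of 16 members 13 were below 0 and 3 above it, where 47.6% of all tested genes were above 0. At an unadjusted p under 0.05 in edgeR stood 0 of the 16, against 16.2% of all tested genes. Fosl2 had a log2 fold change of -0.18 (edgeR adjusted p = 0.382), Jun -0.33 (adjusted p = 0.435) and Dusp1 -0.35 (adjusted p = 0.592). Wild-type library 1 had the highest values of Jun, 162.5 CPM, and Dusp1, 203 CPM. The other wild-type libraries had 80.8 to 107 CPM of Jun and 69.6 to 131 CPM of Dusp1.

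**Figure D5:**
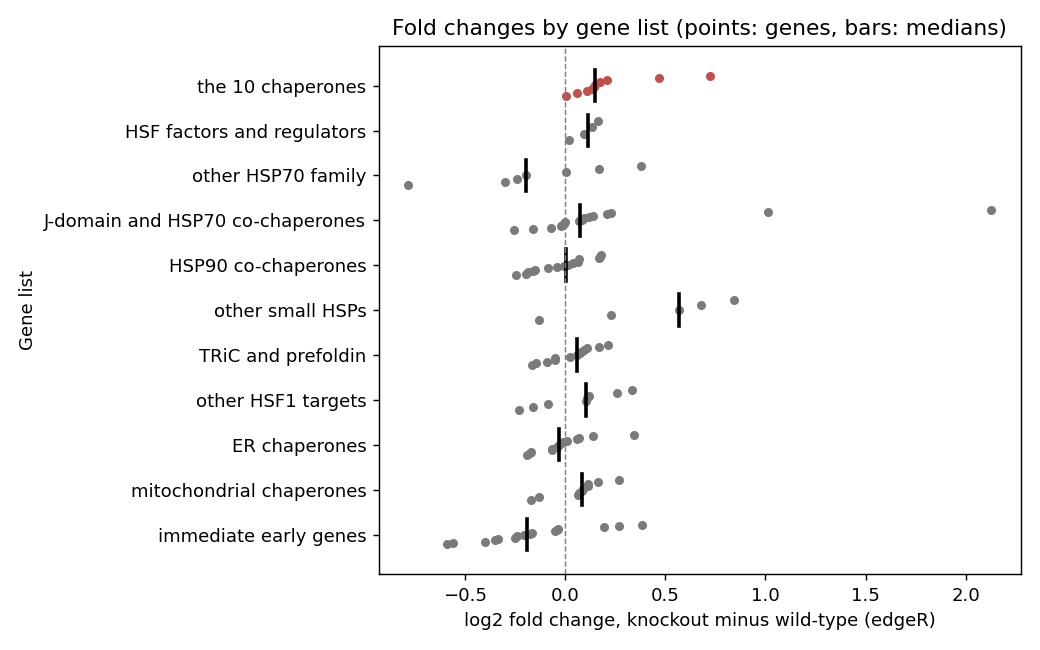
Log2 fold changes, knockout minus wild-type (edgeR), of the 10 chaperones in red and of 10 related gene lists in grey, 1 point per tested gene model with the list median as a bar. The median of the 10 chaperones is 0.15, that of immediate early genes -0.19, and the far right point is Dnaja4 at 2.13.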

How the data were processed

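Poly(A) RNA of 8 libraries was made into strand-specific libraries and read for 50 bases from one end, per the labels' protocols. Novoalign 2.8.1, Picard and the mm10 build are listed in the submitters' processing notes with no role. For the counting program, the annotation and the use of strand, the sources used here give nothing. The deposited table holds, per the file headers, read counts and FPKM values for each gene and library; all 158499 FPKM values above 0 lay within 0.1% of the count divided by exonic length and library total. Totals of 10986375 to 21688464 reads limit the precision of low genes. File starts count from 0 and are printed from 1: so shifted, 24160 of 32609 shared identifiers had the GENCODE M21 (GRCm38) start, against 426 unshifted.

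All genes were fitted in edgeR 4.0.16 (R 4.3.3) with filterByExpr (minimum count 10), TMM scaling and the quasi-likelihood F test without covariates; p-values were adjusted by Benjamini-Hochberg over the 14800 tested genes, with a threshold of 0.05. Correlations used log2 CPM with a prior count of 2. The method was tested on simulated data. Within each genotype every pair of libraries was compared by chi-square over genes; the lowest mean was 20.8 per gene, so none was treated as a duplicate. Alternatives were other scalings (RLE, upper quartile, library size), other filters, DESeq2 1.42.0, limma-voom (limma 3.58.1), a replicate block, single libraries left out and Hspa1a summed with Hspa1b. Leaving out knockout libraries 2 and 3, and summing pseudogene copies, were chosen after seeing the data. Stretches of 50 bases were compared over GENCODE M21 transcripts on both strands.

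The members, lists and markers were chosen with earlier results of these data known. Other genes named are Atg3, the 3 with the lowest p in each list (1 of them is not reported here), and those with the highest Pearson r at a mean of at least 1 CPM; the pseudogenes were named after their values were seen.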

Additional observations from a re-analysis of the deposited data

Results flagged for a closer look

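In each group of 4 libraries the highest and lowest CPM of the 10 chaperone genes were set against the rest, by the gap to the next library as a share of the whole range. Of these 20 groups 2 held a library that stood apart, where chance flags about 1 in 20 groups. Hspa8 had 145.1 CPM in wild-type library 2, a gap of 0.864 of the wild-type range; this is the wild-type library with 18 reads of the copy Gm15459, against 239 to 395 in the other wild-type libraries. Hspa1b had 8.44 CPM in knockout library 3, a gap of 0.905 of the knockout range, from 124 reads; Hspa1a had 3.27 CPM there, inside the range of the other knockout libraries.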

How the results depend on the processing

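Over 188 fits of single chaperone genes under other settings 180 kept the sign of the estimate, 8 had the opposite sign and 0 passed an adjusted p of 0.05. These fits reuse the same 8 libraries, and summing Hspa1a with Hspa1b left the other genes nearly unchanged. The kept signs are thus not separate pieces of evidence. The number of chaperone genes called was 0 under every setting run. Opposite signs were found without knockout libraries 2 and 3 for Hspa1b (log2 fold change -0.0133), Dnajb1 (-0.0135) and Bag3 (-0.00543). With single libraries left out, Bag3 ran from -0.0712 to 0.0640, Hspa1b from -0.0452 to 0.268 and Hspb1 from -0.115 to 0.265. The main estimates of Bag3, Hspa1b and Hspb1 were 0.0072, 0.146 and 0.137. Over all settings the log2 fold change of Hspa1a ran from 0.0642 to 0.317 and that of Hspa4 from 0.0265 to 0.116. The adjusted p of Hsph1 ran from 0.0993, without knockout library 1, to 0.934, without knockout libraries 2 and 3. The number of all genes called was 60, and 810 with DESeq2, 14 with the replicate number as a block and 3 without knockout libraries 2 and 3. With single libraries left out it ran from 0 to 290, lowest without knockout library 2 (by edgeR, where 1573 had a p under 0.05 before adjustment) and highest without knockout library 1; the cause was not tested. Deviations of same-numbered libraries from their group means correlated at 0.184, -0.106, -0.254 and 0.0577, so the numbers were not taken as pairs; of the wild-type libraries, only library 1 correlated best with the knockout library of its own number, and the block changed no call of a chaperone gene. Depth limits Hspa1a most, at 35 to 69 reads a library.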
